A study of Mus musculus with 14 samples.

Results

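Messenger RNA of 9 adhesion and lymph node egress genes was examined in mouse CD8 T cells: S1pr1, Cd69, Icam1, Itgal, Itgb2, Itga4, Itgb7, Cd44 and Pecam1. They were taken by gene symbol from both deposited tables, and all 9 were found among the 14732 genes of the table without IFN-beta and the 12843 genes of the table with IFN-beta. Wild-type and Morrbid-/- C57BL/6 mice gave naive splenic CD8 T cells, sorted for high CD62L and low CD44 and stimulated for 6 hours through CD3 (plate-bound antibody, 1 µg/mL) and CD28 (soluble antibody, 1 µg/mL). One set of cultures received nothing more and the other also received 20 ng/mL IFN-beta, a type I interferon. Each genotype gave 3 libraries without IFN-beta and 4 with it. All groups therefore share the receptor stimulation, and unstimulated cells were not analysed here. Morrbid is a long non-coding RNA, and the deleted part is not given in the sources used here.

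A T cell leaves a lymph node by following sphingosine-1-phosphate, which is abundant in blood and lymph and is sensed by the receptor S1PR1. CD69, an early activation antigen that T cell receptor signals and type I interferon both raise, binds S1PR1 and removes it from the cell surface, so that activated cells are held in the node. The integrins LFA-1 (chains encoded by Itgal and Itgb2) and alpha4beta7 (Itga4 and Itgb7) bind ICAM-1 and the gut addressin MAdCAM-1, CD44 binds hyaluronan, and PECAM-1 is a homophilic receptor with inhibitory tail motifs.

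The genotype labels could not be checked on Morrbid itself. Without IFN-beta, Morrbid had 2, 4 and 2 reads in the wild-type libraries and 7, 4 and 7 reads in those labelled Morrbid-/-. These are not lower under the label, but they are few. Since the deleted part is not given, they cannot test it. With IFN-beta Morrbid was not analysed here. The mutant libraries are therefore called labelled Morrbid-/- throughout, and every direction drawn from them rests on that label. Recovered reads per library numbered 1747634 to 2963149 in the table without IFN-beta and 5788070 to 7355337 in the other. In the deeper table every labelled Morrbid-/- library held more reads than any wild-type library. Mitochondrial 16S rRNA took 11.6% to 18.9% of the reads without IFN-beta and 9.05% to 12.0% with it. All 5 CD8 T cell markers were present in every group, with summed normalized counts of 2806 to 3688 without and 6926 to 8091 with IFN-beta. Summed markers of B cells, NK cells and red cells did not exceed 28.4 normalized counts in any library. Nothing in the labels says that the replicates came from separate animals, so the p-values measure the spread between these libraries, which may be technical. In bulk samples, fewer cells of a type and less RNA per cell cannot be told apart.

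With IFN-beta, 2 of the 9 genes passed the test between genotypes, where 5.25% of all genes were called higher and 4.84% lower. Both were higher in the libraries labelled Morrbid-/-: Icam1, the ligand of LFA-1, and Cd44, the hyaluronan receptor. The Cd44 call rests on 10 to 45 reads per library and was lost under several alternatives. Without IFN-beta none of the 9 passed, and neither genotype difference of Icam1 or Cd44 was shown to depend on IFN-beta. The upstream sequences of these 2 genes are shown because they are the 2 that passed. They run from 250 bases before to 30 bases after the RefSeq start (GRCm38.p6), 5′ to 3′ on the gene's strand, for Icam1 at chr9:21015690-21015969 (+) and for Cd44 at chr2:102901636-102901915 (-).
Icam1: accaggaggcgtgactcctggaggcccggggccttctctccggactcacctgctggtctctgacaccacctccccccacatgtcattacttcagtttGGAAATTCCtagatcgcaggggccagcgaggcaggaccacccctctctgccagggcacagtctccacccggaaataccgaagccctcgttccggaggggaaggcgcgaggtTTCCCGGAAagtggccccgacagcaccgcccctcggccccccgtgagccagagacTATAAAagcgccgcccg
Cd44: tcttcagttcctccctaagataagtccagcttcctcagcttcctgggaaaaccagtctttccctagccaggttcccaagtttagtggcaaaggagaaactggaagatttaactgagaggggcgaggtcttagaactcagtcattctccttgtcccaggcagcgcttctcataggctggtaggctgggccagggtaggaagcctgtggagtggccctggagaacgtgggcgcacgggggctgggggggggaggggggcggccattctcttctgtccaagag
Capitals in the Icam1 line mark 3 of its matches. CACCC boxes, left in lower case, start 116 and 89 bases before the start, and another lies after the printed stretch. The first, GGAAATTCC at chr9:21015787-21015795, matches the NF-kB core GGANNTTCC on both strands and lies 153 to 145 bases before the start. The second, TTCCCGGAA at chr9:21015898-21015906, matches the palindromic interferon-gamma-activated site TTCNNNGAA, and the third is a TATA box, TATAAA, at chr9:21015953-21015958. The TATA box lies after the RefSeq start at 21015940 and before the GENCODE start at 21015985. The 3 marked matches do not overlap with each other or with the CACCC boxes. None of these motifs, nor AP-1 (TGANTCA), the interferon-stimulated element (GAAANNGAA) or a CACCC box, was found in the Cd44 window on either strand. Of 32851 RefSeq promoter windows of 300 bases, 4.26% held the NF-kB core, 8.30% the interferon-gamma-activated site, 13.6% the TATA box, 7.81% AP-1, 8.56% the interferon-stimulated element and 57.5% a CACCC box. The windows of Itga4 and Itgb7 held 4 CACCC matches each and none of the other motifs. Promoters of 4 of the 9 genes were matched. S1pr1, Cd69, Itgal, Itgb2 and Pecam1 were not among them.

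S1pr1 (Entrez 13609, chr3:115710433-115715055, minus strand) encodes the egress receptor. Its normalized count without IFN-beta was 1573, 1824 and 1470 for wild type and 1248, 1355 and 1319 under the Morrbid-/- label. The 3 labelled Morrbid-/- libraries all lay below the 3 wild-type libraries, with the means at 1307 ± 54.7 and 1622 ± 182 (SD, n = 3). The log2 difference, labelled Morrbid-/- minus wild type on log2(normalized count + 1), was -0.31 (SE 0.10), and its Benjamini-Hochberg adjusted p from limma over all 9290 genes tested was 0.384. With IFN-beta the counts were 1611, 1625, 1760 and 1535 for wild type and 1616, 1596, 1811 and 1691 under the Morrbid-/- label. The genotypes overlapped there, at 1633 ± 93.5 and 1679 ± 97.3 (SD, n = 4), with a difference of 0.04 (SE 0.06, limma adjusted p 0.754). The difference between the 2 genotype differences was 0.35 (SE 0.11), and its limma adjusted p was 0.139.

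Cd69 (Entrez 12515, chr6:129267324-129275375, minus strand) encodes the antigen that retains S1PR1 inside the cell. Without IFN-beta its normalized counts were 495, 430 and 386 for wild type and 522, 450.5 and 404 under the Morrbid-/- label. With IFN-beta they were 4189, 3310, 3193 and 3810 for wild type and 3741, 3486, 2950 and 3191 under the Morrbid-/- label. The genotypes overlapped in both tables. The log2 differences were 0.07 (SE 0.11) and -0.11 (SE 0.08), with limma adjusted p-values of 0.967 and 0.396, and they differed from each other by -0.18 (SE 0.15, adjusted p 0.668).

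Set against S1pr1 inside each library, without correction for length, Cd69 had the lower normalized count in all 6 libraries without IFN-beta and the higher in all 8 with it. Per kilobase of exon, Cd69 was above S1pr1 in 0 of the 6 and in 4 of the 8. The exon length joins all annotated transcripts of a gene, at 6.509 kb for Cd69 and 3.046 kb for S1pr1. The lengths of the transcripts present were not determined. The ratio of the 2 normalized counts does not depend on how a library was scaled. Without IFN-beta it was 0.315, 0.236 and 0.263 for wild type and 0.418, 0.332 and 0.306 under the Morrbid-/- label, so the highest wild-type value lay above the lowest labelled Morrbid-/- value. The genotype means were 0.271 ± 0.0402 and 0.352 ± 0.0586 (SD, n = 3), a log2 difference of 0.38 (SE 0.18), or 0.25 without labelled Morrbid-/- replicate 1. A two-sided exact permutation test gave p = 0.2, where 3 against 3 libraries cannot go below 0.1. With IFN-beta the ratio was 2.60, 2.04, 1.81 and 2.48 for wild type and 2.31, 2.18, 1.63 and 1.89 under the Morrbid-/- label. These overlapped, at 2.23 ± 0.370 and 2.00 ± 0.307 (SD, n = 4), with a log2 difference of -0.15 (SE 0.17) and a two-sided exact permutation p of 0.4, the smallest possible being 0.0286. Leaving out 1 library moved this difference to between -0.25 (without wild-type replicate 3) and -0.059 (without labelled Morrbid-/- replicate 3). Set side by side with no test, the mean ratio with IFN-beta was 8.24 times that without it in wild type and 5.69 times in the labelled Morrbid-/- libraries. Scaling does not enter this ratio, but IFN-beta cannot be told apart here from anything else that differed between the 2 sets of libraries.

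**Figure D1:**
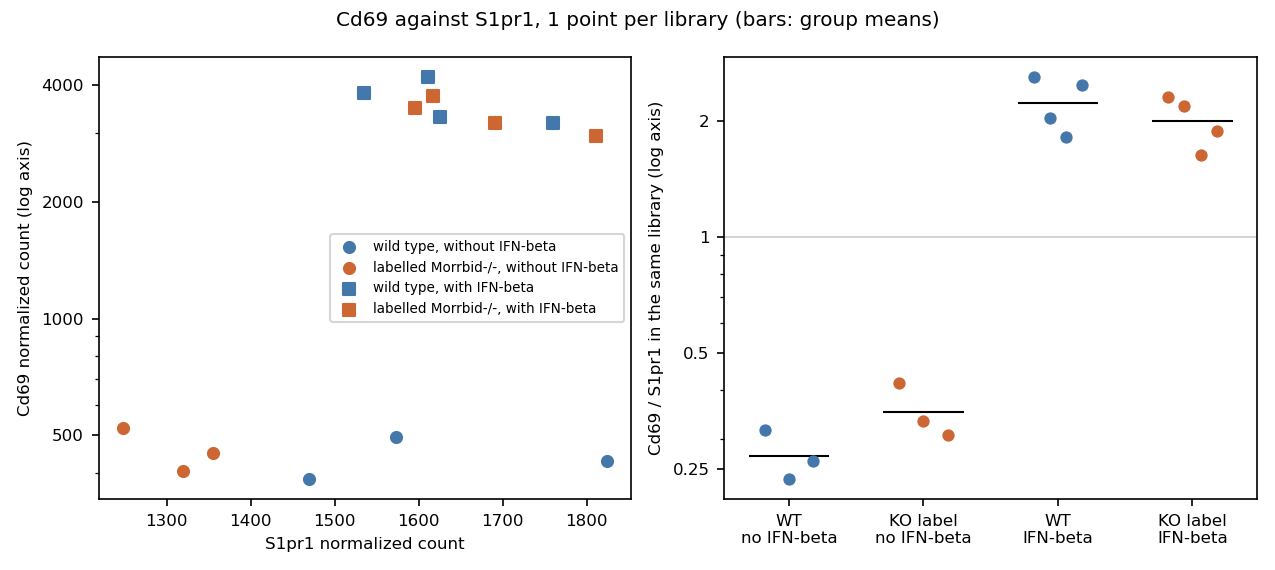
The left panel plots the Cd69 normalized count (log axis) against that of S1pr1 for each library, circles without and squares with IFN-beta; the right panel plots the ratio of the 2 genes in each library on a log axis, with bars at the group means. All 6 libraries without IFN-beta sit between 0.236 and 0.418 and all 8 with it between 1.63 and 2.60, and the genotypes overlap in each set.

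Icam1 (Entrez 15894, chr9:21015940-21028814, plus strand) had the smallest adjusted p of the 9 genes. With IFN-beta its normalized count was 918, 1047, 990.2 and 907 for wild type and 1306, 1300, 1320 and 1486 under the Morrbid-/- label. The 4 labelled Morrbid-/- libraries all lay above the 4 wild-type libraries, at 1353 ± 89.2 against 965 ± 65.4 (SD, n = 4). The log2 difference was 0.49 (SE 0.07), and the limma adjusted p over 9964 genes was 2.8e-05. Without IFN-beta the counts were 100.1, 102 and 97.1 for wild type and 135, 118 and 142 under the Morrbid-/- label. Here too the genotypes did not overlap, and the difference was 0.39 (SE 0.14), but the limma adjusted p was 0.482. The differences with and without IFN-beta differed by 0.09 (SE 0.12, limma adjusted p 0.814). Icam1 shares 511 exonic bases, 11.7% of its exons, with the antisense gene Gm47079, and the strand setting of the counting is not given in the sources used here.

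Some markers listed for other cells were higher under the Morrbid-/- label in the same table. Of the dendritic cell list only Zbtb46 was listed with IFN-beta, while Xcr1, Siglech, Flt3 and H2-Aa were not. The normalized count of Zbtb46 was 6.14 to 25.7 in wild type and 43.1 to 51.3 in the libraries labelled Morrbid-/-. The summed CD4 and regulatory T cell markers, which there were Foxp3, Ctla4 and Ikzf2, came to 693 to 800 and 866 to 1090 normalized counts. Most of that sum was Ikzf2 (605 to 901) and Ctla4 (73.6 to 180), while Foxp3 was at 2.05 to 9.16. Of the same markers, Cd4 was listed in neither table and Zbtb7b only without IFN-beta, at 0 in every library. Cd68, the only 1 of 5 myeloid markers listed with IFN-beta, was at 13.3 to 15.3 in wild type and 17.4 to 34.1 in the labelled Morrbid-/- libraries. Without IFN-beta the dendritic list summed to 17.9 to 22.9 in wild type and 26.4 to 32.7 under the Morrbid-/- label. The CD4 and regulatory list (199 to 369 and 325 to 414) and the myeloid list (4.59 to 14.3 and 7.10 to 21.0) overlapped there. The part of any such cells in the Icam1 and Cd44 differences was not tested.

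Cd44 (Entrez 12505, chr2:102811141-102901669, minus strand) had the lowest level of the 9, in cells that were sorted for low CD44 protein. With IFN-beta its normalized count was 11.8, 19.5, 26.9 and 14.6 for wild type and 36.7, 38.5, 40.4 and 21.0 under the Morrbid-/- label. One labelled Morrbid-/- library, replicate 4, lay among the wild-type values. The means were 18.2 ± 6.59 and 34.1 ± 8.91 (SD, n = 4), a log2 difference of 0.89 (SE 0.28) with a limma adjusted p of 0.0400. These levels rest on 10 to 45 reads per library. The call was lost with quantile normalization, with no filter on low counts and with no mean-variance trend (adjusted p 0.0585 to 0.124). It was also lost when 16S rRNA share entered the model, where the difference was 0.51 (adjusted p 0.263), and when any of 6 of the 8 libraries was left out (wild-type replicate 1, 2 or 4, labelled Morrbid-/- replicate 1, 2 or 3; adjusted p 0.0603 to 0.129).

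Without IFN-beta the Cd44 normalized counts were 39.3, 22.9 and 35.2 for wild type and 51.7, 64.2 and 67.5 under the Morrbid-/- label, from 22 to 66 reads. The genotypes did not overlap. Their means were 32.5 ± 8.55 and 61.1 ± 8.35 (SD, n = 3), and the log2 difference of 0.92 (SE 0.22) had a limma adjusted p of 0.0614. It passed the threshold without wild-type replicate 1 (adjusted p 0.0180) or labelled Morrbid-/- replicate 1 (adjusted p 0.0272), and with counts rescaled to equal library totals (adjusted p 0.0224). Without wild-type replicate 2 it was 0.69 (adjusted p 0.480), and over all 16 alternatives the adjusted p ran from 0.00407 to 0.480. The Cd44 differences in the 2 tables differed by -0.03 (SE 0.39, limma adjusted p 0.991).

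The LFA-1 chains gave no call in either table. Itgal (Entrez 16408, chr7:127296139-127335137, plus strand) had normalized counts of 291, 233 and 245 for wild type and 288, 259 and 301 under the Morrbid-/- label without IFN-beta. With IFN-beta Itgal was at 511, 502, 593 and 547 for wild type and 434, 543, 550.0 and 458 under the Morrbid-/- label. The genotypes overlapped each time, and the log2 differences were 0.14 (SE 0.11, limma adjusted p 0.933) and -0.12 (SE 0.09, limma adjusted p 0.421). Itgb2 (Entrez 16414, chr10:77530329-77565708, plus strand), the beta chain that LFA-1 shares with other leukocyte integrins, was at 375, 349 and 353 for wild type and 354, 310.4 and 351 under the Morrbid-/- label without IFN-beta. With IFN-beta it was at 262, 225, 238 and 247 for wild type and 209.8, 256, 199 and 219.8 under the Morrbid-/- label. Its log2 differences were -0.09 (SE 0.10, limma adjusted p 0.955) and -0.14 (SE 0.10, limma adjusted p 0.408), with overlapping genotypes.

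Nor did the alpha4beta7 chains pass. Itga4 (Entrez 16401, chr2:79255426-79333114, plus strand) had normalized counts of 1990, 2988 and 2139 for wild type and 1810, 1831 and 2082 under the Morrbid-/- label without IFN-beta. With IFN-beta Itga4 was at 4310, 4640, 4910 and 4647 for wild type and 4474, 4445, 5013 and 5094 under the Morrbid-/- label. Wild-type replicate 2 was the high library without IFN-beta, and the genotypes overlapped in both tables. The log2 differences were -0.29 (SE 0.12, limma adjusted p 0.689) and 0.04 (SE 0.06, limma adjusted p 0.751), and they differed by 0.33 (SE 0.14, limma adjusted p 0.322). Without wild-type replicate 2 the difference without IFN-beta was -0.12, and the interaction contrast was 0.15. Itga4 shares 1124 exonic bases, 8.04% of its exons, with Cerkl on the opposite strand, which had at most 33 normalized counts in any library. Itgb7 (Entrez 16421, chr15:102215994-102233405, minus strand), the beta chain, was at 145, 181 and 148 for wild type and 132, 153 and 124 under the Morrbid-/- label without IFN-beta. With IFN-beta Itgb7 was at 131, 133, 162 and 153 for wild type and 148, 115, 161 and 150.5 under the Morrbid-/- label. Its log2 differences were -0.21 (SE 0.13, limma adjusted p 0.889) and -0.02 (SE 0.12, limma adjusted p 0.958), again with overlap.

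Pecam1 (Entrez 18613, chr11:106654213-106715281, minus strand) had normalized counts of 295, 329.8 and 333 for wild type and 274, 333 and 319 under the Morrbid-/- label without IFN-beta. With IFN-beta they were 1815, 1896, 1775 and 2002 for wild type and 1646, 1814, 1622 and 1930 under the Morrbid-/- label. The genotypes overlapped in both, with log2 differences of -0.05 (SE 0.11, limma adjusted p 0.975) and -0.10 (SE 0.06, limma adjusted p 0.385). PECAM-1 is best known from endothelium and platelets. Of 6 markers of those cells, Cdh5, Kdr, Pf4, Ppbp and Gp1bb were listed in neither table. Only Itga2b was, at 4.05 to 17.7 normalized counts without and 26.9 to 51.8 with IFN-beta. The part of any such cells in the Pecam1 level was not tested.

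**Figure D2:**
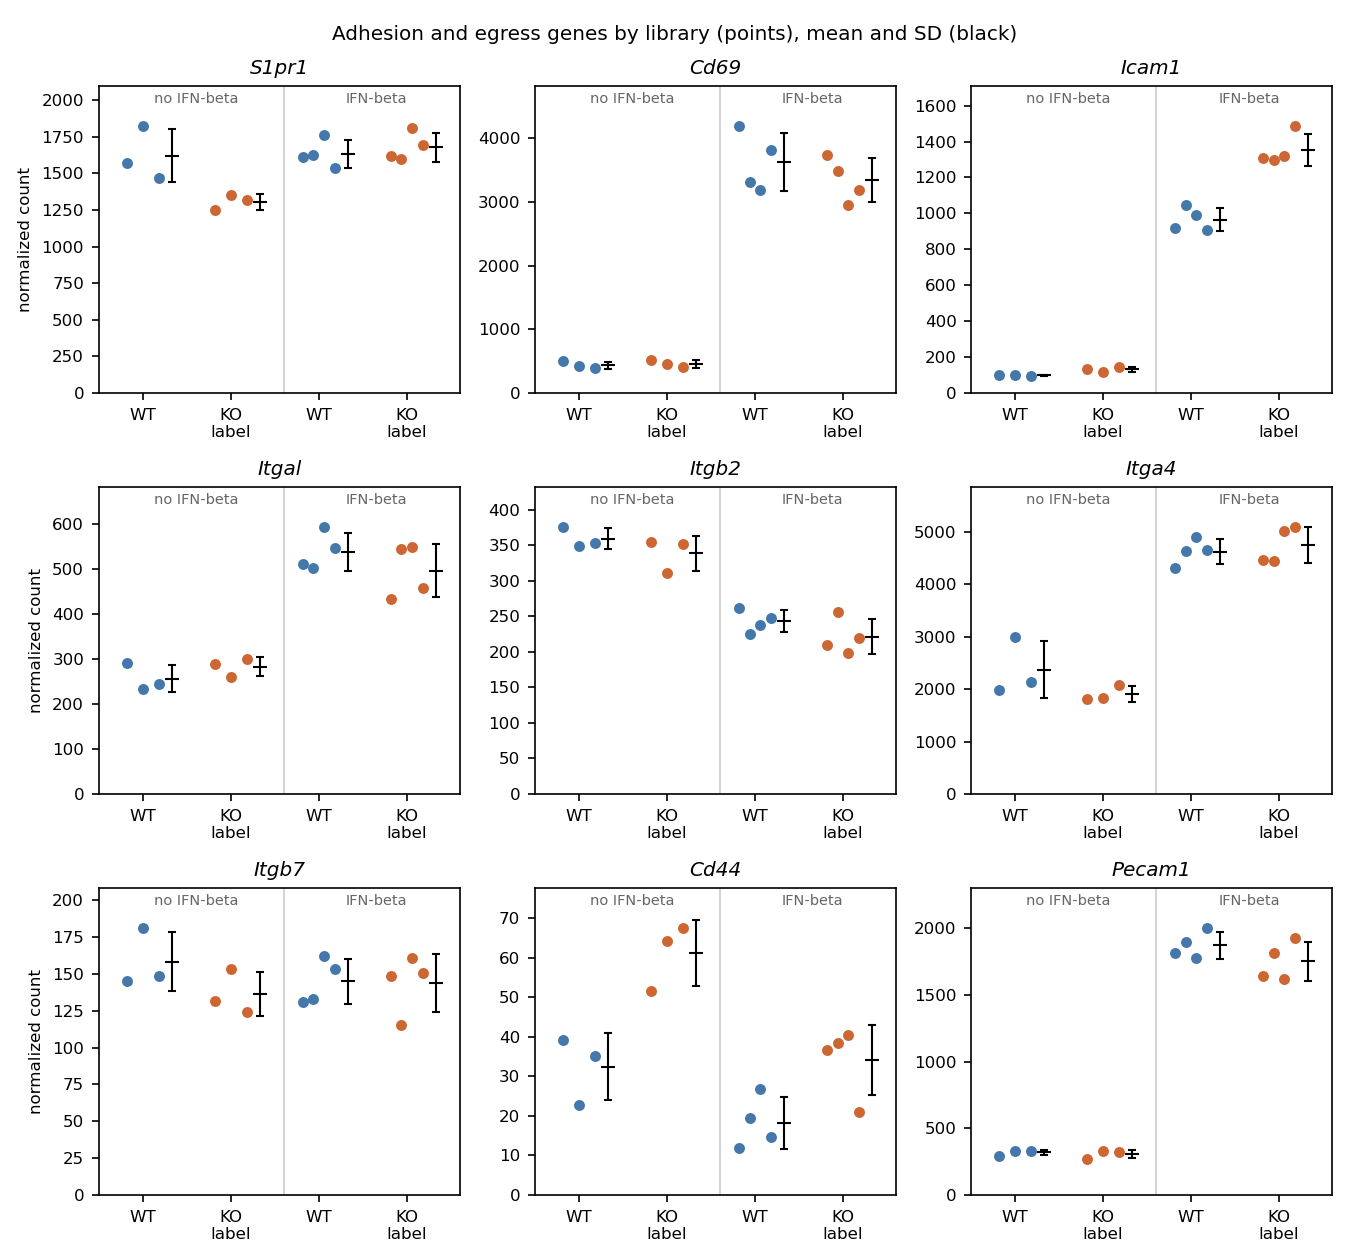
Each panel plots the normalized count of 1 gene (linear axis from 0), 1 point per library in wild type (WT, blue) and labelled Morrbid-/- (KO label, orange), with the mean and SD in black; the 2 sides of the grey line were normalized separately. Icam1 separates the genotypes on both sides, S1pr1 and Cd44 only without IFN-beta.

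Counted over the 9 genes, the limma test without IFN-beta called 0 higher and 0 lower, where it called 0.538% of all genes tested higher and 0.0969% lower. At an unadjusted p under 0.05, 4 of the 9 stood out (Cd44, S1pr1, Icam1 and Itga4), beside 567 of all 9290 genes. EdgeR and DESeq2 on the recovered reads also called 0 after adjustment. With IFN-beta the limma test called 2 higher and 0 lower, against 5.25% and 4.84% of all genes. At an unadjusted p under 0.05 there were 2 of the 9, beside 2434 of all 9964 genes. Genotypes did not overlap for 3 of the 9 without IFN-beta (Cd44, S1pr1 and Icam1), against 10.9% of all genes, and for 1 of the 9 with it (Icam1), against 15.2%. The median log2 difference of the 9 was -0.05 without and -0.02 with IFN-beta, beside -0.01 and 0.00 for all genes tested. No member passed the test of a difference between the 2 genotype differences, which called 0.441% of 9078 genes higher and 0.892% lower. An unadjusted p under 0.05 was found for 2 members, S1pr1 and Itga4, and for 1090 of the 9078 genes. EdgeR and DESeq2 called 0 members. Since both sets of comparisons use their own wild-type libraries, no control library is shared between them. Whether like-numbered cultures of the 2 sets came from the same mice is not given, and the interaction contrast did not pair them.

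**Figure D3:**
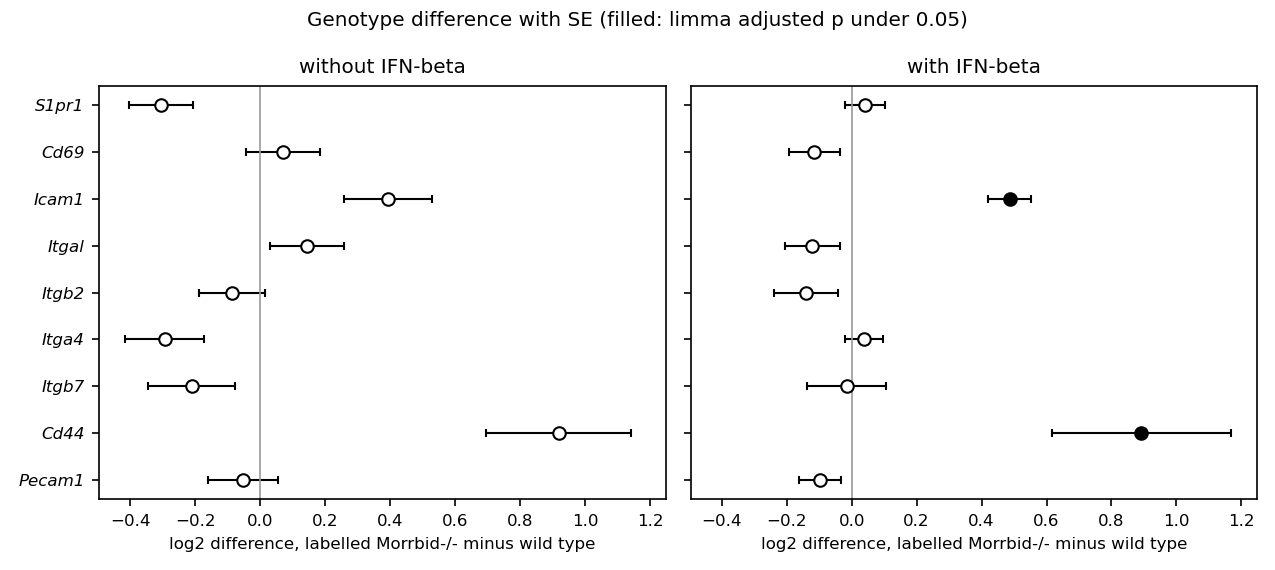
Points give the log2 difference, labelled Morrbid-/- minus wild type, of each gene, and bars its SE from limma, without IFN-beta on the left (3 against 3 libraries) and with it on the right (4 against 4). Only Icam1 (0.49) and Cd44 (0.89) with IFN-beta are filled, the mark of an adjusted p under 0.05.

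Without IFN-beta the libraries fell into 3 with a 16S rRNA share of 16.01% to 18.9% (2 wild type, 1 labelled Morrbid-/-) and 3 with 11.6% to 12.8% (1 wild type, 2 labelled Morrbid-/-). Within these the Icam1 log2 difference was 0.41 and 0.41, and that of Cd44 was 0.76 and 0.89. For S1pr1 it was -0.44 and -0.14, and for Itga4 -0.43 and -0.13. Each set held 1 library on one side, so these differences have no spread to judge them by. With 16S share as a covariate, limma called 3 of the 9: S1pr1 (-0.31, adjusted p 0.0229) and Itga4 (-0.31, adjusted p 0.0481) lower and Cd44 (0.88, adjusted p 0.0154) higher. That model called 71 genes higher and 32 lower, against 50 and 9 without the covariate.

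Levels per kilobase of exon depend on the length joined over all annotated transcripts, such as 2.77 kb for Itgb7 and 13.978 kb for Itga4. By this measure S1pr1 was the highest of the 9 without IFN-beta in wild type, at 533 ± 59.8 normalized counts per kb (SD, n = 3). Itga4 (170) and Itgb2 (118) followed, and none of these 3 overlapped with its neighbour. Cd69 (67.1), Itgb7 (57.1) and Pecam1 (51.3) came next, each overlapping with its neighbour, and then Itgal (39.1), Icam1 (22.9) and Cd44 (4.79). With IFN-beta the wild-type order was led by Cd69 (557 ± 70.9) and S1pr1 (536 ± 30.7; SD, n = 4), which overlapped, and by Itga4 (331) and Pecam1 (301), which overlapped too. Icam1 (221), Itgal (81.9), Itgb2 (79.7), Itgb7 (52.3) and Cd44 (2.68) followed, of which only Itgal and Itgb2 overlapped. In the labelled Morrbid-/- libraries with IFN-beta, Icam1 (310 ± 20.5 per kb) stood before Pecam1 (281 ± 23.4) and overlapped with it, and S1pr1 (551) stood before Cd69 (513), again with overlap. Within LFA-1, the mRNA of the beta chain was above that of the alpha chain per kb without IFN-beta and overlapped with it with IFN-beta. Within alpha4beta7, the alpha chain mRNA was above that of the beta chain in both tables.

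Side by side, as CPM (recovered reads scaled to equal library totals) and with no test because the tables were normalized separately, 8 of the 9 genes did not overlap between the libraries with and without IFN-beta. The share of all genes that separate in this way was not computed, so the count does not set these 9 apart. Icam1 with IFN-beta was at 3.45 times its level without it in wild type and 3.63 times in the labelled Morrbid-/- libraries. Cd69 was at 2.97 and 2.59 times, and Pecam1 at 2.08 and 2.00 times. S1pr1 stood at 0.36 and 0.45 times, Itgb7 at 0.33 and 0.37, Itgb2 at 0.24 and 0.23, Cd44 at 0.20 and 0.20 and Itgal at 0.75 and 0.62. Itga4, at 0.70 and 0.88 times, overlapped. On the deposited scale S1pr1 was at 1622 without and 1633 with IFN-beta in wild type. These 2 values are not comparable, as each table was scaled to its own libraries, which were deeper with IFN-beta. In CPM S1pr1 was lower with IFN-beta, and there IFN-beta cannot be told apart from the table.

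The replicate spread differed between the genes. For genes whose mean reached 50, the median within-group SD of log2 values was 0.152 without and 0.136 with IFN-beta. Icam1 was below it in both tables, at 0.101 and 0.0946, and S1pr1 at 0.120 and 0.0820, while Cd69 was above it at 0.182 and 0.166 and Itgb7 at 0.167 and 0.182. Itga4 was at 0.235 without IFN-beta and at 0.0919 with it. Cd44, below that mean, had coefficients of variation of 26.3% and 13.7% in the 2 genotypes without IFN-beta and 36.2% and 26.1% with it.

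Across all 14 libraries, with each table centred on its own mean, the genes most like S1pr1 among 5593 were Sesn1 (Pearson r 0.90), Rsrp1 (0.87) and Itga4 (0.84), where the median gene had 0.04. Those most like Cd69 were Etf1 (0.90), Wdr43 (0.90) and Pdcl (0.87), beside a median of -0.01. Cd44 was too low to enter. Among the 28 pairs of the other 8 genes, S1pr1 also went with Itgb7 (0.69) and Itga4 with Itgb7 (0.64), and the lowest values were those of Icam1 with Itgb2 (-0.50), Cd69 with Itga4 (-0.49) and Itgb2 with Itgb7 (-0.44). Cd69 with S1pr1 had -0.38. These r values are descriptions, since genotype label, depth and 16S share vary among the same libraries.

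Of 26 other gene symbols for egress and the KLF2 and FOXO1 factors that control it, limma tested 20 without IFN-beta and 21 with it. Grk2 and Adrbk1 among them name the same gene. With IFN-beta 3 of 21 rose and 0 fell under the Morrbid-/- label, where 5.25% of all genes were called higher and 4.84% lower, and the median log2 difference was 0.05. Ccr7, the receptor that guides T cells into lymph nodes, was at 802 ± 81.1 against 562 ± 51.4 normalized counts (SD, n = 4; 0.51, SE 0.08, adjusted p 1.68e-04). Klf2, the factor that switches on S1pr1, was at 1001 ± 57.6 against 843 ± 95.6 (0.25, SE 0.08, adjusted p 0.0337). Klf3, a factor of the same family, was at 1352 ± 33.2 against 1167 ± 95.1 (0.22, SE 0.06, adjusted p 0.0340), while S1pr1 itself differed by 0.04. Without IFN-beta 0 of 20 passed and 0 had an unadjusted p under 0.05; the smallest p-values were those of Klf3 (-0.22) and S1pr4 (-0.25), with limma adjusted p-values of 0.814 and 0.878.

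Genes of integrin activation and linkage, 22 in all and with talin, Rap1, adaptors and restrainers such as Cytip among them, were tested in both tables. With IFN-beta 3 of 22 were higher and 3 lower under the Morrbid-/- label, beside 5.25% and 4.84% of all genes, and the median difference was 0.03. The lower ones were Mob1a (-0.44, SE 0.07, adjusted p 1.51e-04), a partner of the MST kinases, Skap1 (-0.38, SE 0.08, adjusted p 0.00183), an adaptor that links the T cell receptor to LFA-1, and Cytip (-0.32, adjusted p 7.30e-04), which restrains cytohesin-1. Of the higher ones, Rasgrp2 (0.61, SE 0.15, adjusted p 0.0114) activates Rap1, Pxn (0.34, adjusted p 0.0192) encodes paxillin, which binds the alpha4 tail, and Fyb (0.31, adjusted p 0.00936) encodes the partner of SKAP1. Without IFN-beta 0 of 22 passed and 1 had an unadjusted p under 0.05, beside 567 of all 9290 genes. Skap1 (-0.25) and Cytip (-0.16) had the smallest p-values, with limma adjusted p-values of 0.769 and 0.913. No gene of the egress or activation lists passed limma's test of a difference between tables. There 4 and 6 had an unadjusted p under 0.05, beside 1090 of all 9078 genes. EdgeR called 0 in either list, and DESeq2 called Ccr7 (0.48, adjusted p 0.0455) and Mob1a (-0.50, adjusted p 0.0201).

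Among 20 tested genes of other adhesion molecules and ligands, 1 rose and 5 fell under the Morrbid-/- label with IFN-beta, with a median of -0.09 and beside 5.25% and 4.84% of all genes. Ezr, which encodes the membrane-actin linker ezrin, rose by 0.39 (SE 0.07, adjusted p 3.65e-04). Cd84, a homophilic receptor of the SLAM family, was at 1430 ± 35.5 against 1915 ± 51.3 normalized counts (SD, n = 4; -0.42, SE 0.06, adjusted p 2.01e-05). The others that fell were Amica1 (-0.36, adjusted p 0.00260), Cd96 (-0.31, adjusted p 0.0123), Cd48 (-0.30, adjusted p 0.0358) and Cd164 (-0.20, adjusted p 0.0361). For Cd84 the genotype difference was itself lower with IFN-beta than without it, by 0.36 on the log2 scale (limma adjusted p 0.0427), and edgeR and DESeq2 called it too. Limma's test of a difference between tables also passed for Amica1, a junctional adhesion molecule (-0.75, adjusted p 0.0263), which edgeR and DESeq2 did not call. Without IFN-beta Amica1 was at only 9.76 normalized counts in wild type and 13.3 under the Morrbid-/- label, so that it passed the filter through the higher group. Without IFN-beta 0 of 20 passed. An unadjusted p under 0.05 was found for 2, Cd24a (0.70, adjusted p 0.745) and Cd6 (0.24, adjusted p 0.746), beside 567 of all 9290 genes.

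Of 16 other integrin chains 7 were tested, and 0 passed in either table by limma, edgeR or DESeq2. At an unadjusted p under 0.05 there were 2 without and 3 with IFN-beta, beside 567 of 9290 and 2434 of 9964 genes. Itga6, the alpha chain of a laminin receptor, was at -0.27 without and -0.19 with IFN-beta (adjusted p 0.560 and 0.0765). Itgae, the chain that binds E-cadherin, was at -0.29 in both (adjusted p 0.669 and 0.121).

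**Figure D4:**
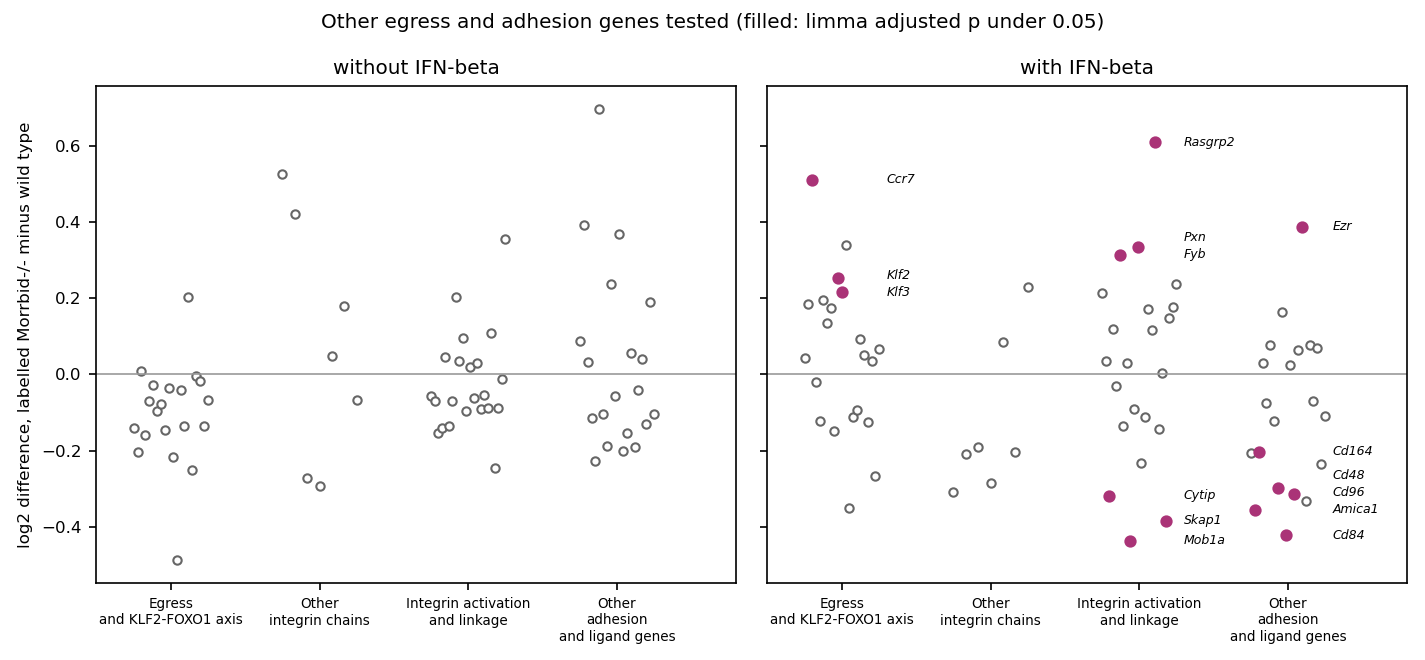
Every point is the log2 difference, labelled Morrbid-/- minus wild type, of 1 tested gene in 4 lists of other egress and adhesion genes, without IFN-beta on the left and with it on the right; filled and named points have a limma adjusted p under 0.05. On the right 7 genes are named above 0 and 8 below, and on the left none.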

How the data were processed

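Per the labels' protocols, 100 ng of total RNA per sample went into stranded total RNA libraries read as paired 75-base reads. The authors deposited 1 table of normalized counts per stimulation, a signal that is never negative. Tools named in the submitters' processing notes, without roles, are STAR 2.5, Trimmomatic, DESeq2 and featureCounts, with the builds GRCm38 and mm10. The annotation, strand setting and filters used were not given in the sources used here. Within a library, all deposited signal values were multiples of a single step, and division by that step returned whole reads, within 0.01, for 100% of values.

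Genotypes were compared within each table, which were normalized separately, with limma 3.58.1 (R 4.3.3) and a mean-variance trend on log2(normalized count + 1), for genes with a mean of at least 10. Fold changes on this scale understate the change of low genes. Adjusted p-values are Benjamini-Hochberg values over all genes tested, with a threshold of 0.05. The interaction contrast of 1 fit over 14 libraries gave the difference between tables. The scripts were tested on simulated data. edgeR 4.0.16 (50 genes higher and 9 lower without, 511 and 500 with IFN-beta) and DESeq2 1.42.0 on the recovered reads were alternatives, beside pseudocounts, filters, scalings, a 16S covariate, a replicate block and leaving out each library. Replicate pairs differed by more than sampling noise (chi-square per degree of freedom 1.88 to 9.23), so each library counted once. No deposited column was left without a sample. Coordinates and promoters are RefSeq's, GRCm38.p6, and exon lengths and overlaps GENCODE vM21's, with exons joined over all transcripts of a gene. All 9 members are named, and from each list up to 4 genes past the threshold with the largest change, otherwise the 2 with the smallest p; the 2 further genes that passed in each of the activation and adhesion lists are named as well, after their values were seen. The members, lists and tests were chosen with earlier results of these data known.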

Additional observations from a re-analysis of the deposited data

Results flagged for a closer look

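One library stood apart from its group. Among the 4 libraries labelled Morrbid-/- with IFN-beta, replicate 4 had an Icam1 normalized count of 1486, and its gap to the next library was 0.890 of the group's whole range. In all, 20 groups of 4 were looked at in this way, of which chance alone sets apart about 1 in 20. Without that library the Icam1 log2 difference was 0.44, beside 0.49 with it. The same library had the lowest Cd44 normalized count of its group, 21.0.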

How the results depend on the processing

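Icam1 with IFN-beta passed under all 19 alternatives (0.44 to 0.53 on the log2 scale, adjusted p 3.54e-09 to 0.0251). The other call with IFN-beta, Cd44, left a count of 1 in place of 2 with no filter (adjusted p 0.0585), quantile normalization (0.0585), no trend (0.124) and the 16S covariate (0.263); the count was also 1 with a mean of at least 50, which leaves Cd44 untested, and in DESeq2, which gave Cd44 a p of 0.0040 but no adjusted p. Leaving out 1 library gave 1 to 2 calls with IFN-beta, 0 to 1 without it and 0 for the difference between tables. Without IFN-beta the count of 0 became 1 with rescaled totals and 3 with the 16S covariate. Whether the replicate numbers pair the libraries was not settled, and the main fit did not use them. Same-numbered libraries correlated at -0.02 to 0.38 without and 0.03 to 0.24 with IFN-beta. Other pairs ran from -0.36 to 0.08 without and from -0.17 to 0.08 with it. Not every library correlated best with its own number. With a replicate block the counts were 3 without IFN-beta (S1pr1, Itga4 and Cd44), 2 with it and 1 for the difference (S1pr1, adjusted p 0.0236), and all genes called went from 50 higher and 9 lower to 94 and 75 without IFN-beta and from 40 and 81 to 148 and 163 for the difference. Differences near 0 changed sign: Itgb7 with IFN-beta with rescaled totals (0.024), the Cd44 difference between tables in edgeR (0.0054), and, leaving out 1 library, Cd69 (-0.027 to 0.16) and Pecam1 (-0.11 to 0.031) without IFN-beta, Itgb7 with it (-0.073 to 0.085), and the differences between tables of Cd44 (-0.20 to 0.20) and Pecam1 (-0.13 to 0.012). Both genotype differences of the ratio kept their direction, from 0.25 to 0.49 without and -0.25 to -0.059 with IFN-beta; without IFN-beta the exact test could not reach the threshold. Without the trend limma called 13 genes higher and 4 lower without IFN-beta, 171 and 134 with it and 15 and 51 for the difference; with the 16S covariate it called 71 and 32 without IFN-beta and 70 and 120 for the difference; and without labelled Morrbid-/- replicate 2 it called 321 and 288 with IFN-beta. Rescaled totals gave 730 and 344 with IFN-beta, against 523 and 482. The cause was not tested. Depth limits Cd44 most, at 10 to 66 reads per library.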
